A study of Mus musculus with 12 samples.

Results

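Axon guidance ligands and receptors were followed through spliced reads, that is reads that cross an exon-exon junction, in neocortex and neocortical cultures of the mouse. The members were the genes whose symbols match the semaphorin 3 to 7, plexin, neuropilin, Eph, ephrin, Slit, Robo, netrin, Unc5 and Dcc names in both deposited junction tables. The rule found 74 of the 17464 gene symbols present in both tables. Of these, 37 encode ligands and 34 encode receptors. The other 3 match the names only: Unc50 and Unc5cl belong to no guidance family, and Plxna4os1 is an antisense transcript.

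All mice were wild type of the NMRI background, and each of 6 groups had 2 libraries. Neocortex was taken at postnatal day 10 (P10) and at postnatal day 49 (P49). Cultures came from neocortex of E16.5 embryos, were dissociated and were grown for 14 days. They were left untreated (control), or received 50 uM DRB for 2 hours, which blocks elongation by RNA polymerase II. In a second experiment, deposited as a table of its own, all cultures received that DRB treatment, and 1 of its groups also received 20 uM bicuculline for 1 hour, which blocks GABA-A receptors. The series asked how intron retention changes with age, with blocked transcription and with raised network activity. Here the same libraries are read at the level of spliced transcripts. Whether the 2 libraries of a group stem from different mice or dishes is not stated, so each p-value reflects only the variation among these samples, which may be technical. In the deposited table both P10 columns carry the tissue code CX1, while the P49 columns carry CX1 and CX2, so the P10 libraries may come from 1 tissue sample, which touches each test against P10.

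Guidance molecules steer growing axons by attraction and repulsion, and many remain in the mature cortex, where they act on spines, synapses and vessels. Secreted class 3 semaphorins bind neuropilins that signal through A plexins, while membrane-bound semaphorins bind plexins directly. Ephrins on one cell bind Eph receptor tyrosine kinases on another, and both partners can signal. Slits repel through Robo receptors, and netrin 1 attracts through Dcc and repels through Unc5 receptors.

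Depth ranged from 50222006 to 74998569 spliced reads per library in the first experiment and from 63246331 to 70778110 in the second. Levels are given as CPM, spliced reads of a gene per 1000000 spliced reads of the library after scaling for library size, with 1 value per library, and as mean ± SD (n = 2). Because CPM is a share of the library, a change is relative to all other spliced transcripts. The quasi-likelihood test of edgeR was used, its p-values were adjusted by the Benjamini-Hochberg method over all genes tested (adjusted p), and "rose" and "fell" mean an adjusted p below 0.05. The filter on low counts kept 73 members in the first table (all but Plxna4os1) and 69 in the second (all but Epha1, Ntn5, Plxna4os1, Sema3g and Unc5cl). Neuron markers (Rbfox3, Snap25, Syt1, Tubb3 and Map2) were present in every library. As a check of DRB, Id3, a short-lived transcript, was at 25.4 and 24.5 CPM in control cultures and at 1.66 and 1.24 with DRB. Sox9, listed beside it, fell from 39.4 ± 2.8 to 4.67 ± 0.59 CPM. Of 3 activity genes, Fos rose with DRB from 12.4 ± 0.24 to 43 ± 3.6 CPM and Npas4 from 7.09 ± 0.73 to 14 ± 4.4, while Arc did not pass the test. As a check of bicuculline, Npas4 was at 12.7 and 14.4 CPM with DRB alone in the second experiment and at 270 and 262 with bicuculline added.

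To compare members with each other, whose transcripts differ in their number of junctions, a level per junction was used: the median CPM over the junctions that held at least 10% of the reads of the gene's best junction. On that scale Sema7a, a membrane-anchored semaphorin, was highest in tissue, at 24.7 and 23.5 in the P10 libraries and 24.9 and 21.2 at P49. Efnb3, a transmembrane ephrin, followed at P10 with 17 and 19.2. Sema6b (14.1 and 13.6) and Ephb6 (14 and 13.6), an Eph receptor without kinase activity, did not differ from each other beyond their spread. Control cultures had another leader. Plxnb2, the receptor for several class 4 semaphorins, stood at 26 and 25.4 per junction there, above Efnb3 at 16.1 and 16.6, while Sema7a stood at 3.29 ± 0.22. With DRB, Efnb3 led at 29.3 and 29.4 in the first experiment and at 20.9 and 19.5 in the second.

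**Figure D1:**
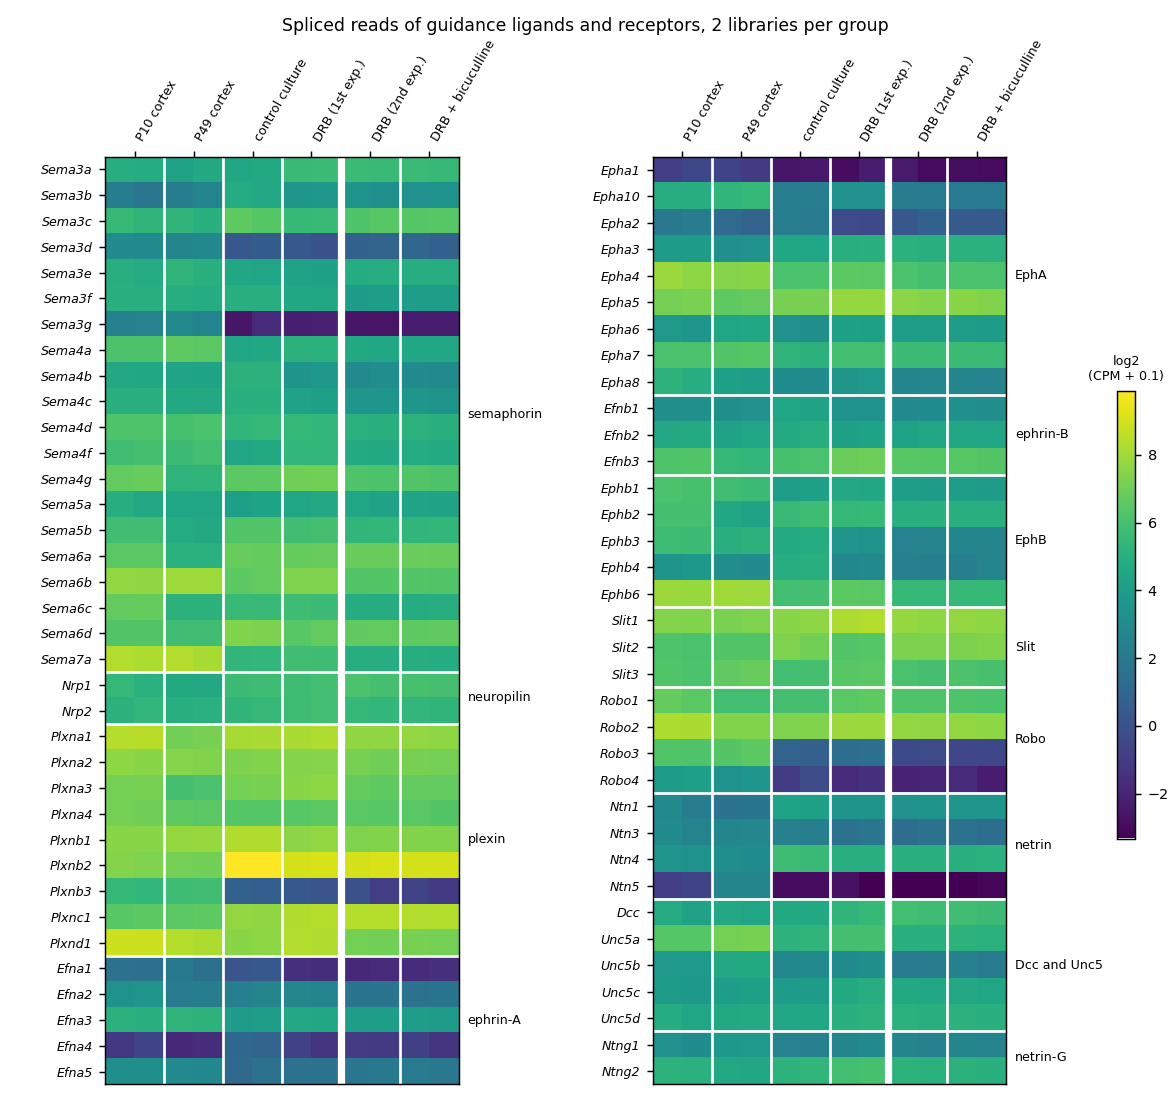
Level of the 71 ligands and receptors as log2(CPM + 0.1), in columns of 2 libraries for each of the 6 groups, with genes in rows by family; the wide white line parts the 2 tables. Robo3, Plxnb3, Robo4 and Sema3g are dark in all culture columns and brighter in tissue, and Plxnb2 is brightest in culture.

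The first comparison asked how transcripts differ between adult and developing cortex. More guidance transcripts fell than rose. Of 73 members tested, 39 fell and 16 rose at P49, which is 53.4% and 21.9%, while over all 15481 genes tested 28.9% fell and 28.2% rose. The median log2 change of the members was -0.26, beside 0.00 for all genes. At least 2-fold, 10 members fell and 1 rose, beside 7.12% and 6.36% of all genes. Ligands and receptors both leaned downward, with 19 of 37 ligands and 20 of 34 receptors lower.

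Among semaphorins, 11 of 20 fell and 4 rose. The largest decrease was that of Sema6c, a transmembrane semaphorin, which went from 105 and 109 CPM at P10 to 35 and 35.8 at P49, with a log2 change of -1.59 and a standard error of 0.052 (adjusted p = 1.7e-09). Errors after ± beside log2 changes are such standard errors. Sema4g, also transmembrane, went from 105 and 111 CPM to 38 and 39.6 (-1.48 ± 0.049, adjusted p = 1.8e-09). Sema6a, which binds the plexins Plxna2 and Plxna4, went from 90.3 and 90.5 CPM to 34.7 and 34.4 (-1.39 ± 0.047, adjusted p = 2.0e-09). In these 3 genes the P49 libraries lay far below both P10 libraries and close to each other. Sema5b, a transmembrane semaphorin with thrombospondin repeats, fell from 55.8 and 56.5 CPM to 28.3 and 24.7 (log2 change -1.08). The increases were small: Sema4a rose from 71.7 and 73.5 CPM to 97.8 and 89.9 (0.37 ± 0.058, adjusted p = 2.2e-04). Sema3b was at 4.57 and 3.58 CPM at P10 and at 4.67 and 6 at P49, with a log2 change of 0.39 (adjusted p = 0.039). The lower P49 library lay just above the higher P10 library, and the call was lost without P10 library 2 (adjusted p = 0.247), without P49 library 2 (adjusted p = 0.298) and in a fit of these 2 groups alone (adjusted p = 0.112). Smaller changes of Sema3a, Sema3c, Sema3e, Sema4b, Sema4d and Sema5a, between -0.37 and 0.30, also lost their call without 1 library, with adjusted p-values from 0.062 to 0.304.

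Among the semaphorin receptors, 6 of 9 plexins and both neuropilins were lower. Plxna1, which pairs with neuropilins in class 3 semaphorin signalling, went from 333 and 351 CPM to 132 and 141 (log2 change -1.33 ± 0.052, adjusted p = 4.5e-09). Plxna3, with the same role, went from 136 and 143 CPM to 62.5 and 68.3 (-1.09 ± 0.058, adjusted p = 4.2e-08). Plxna4 was at 137 and 131 CPM at P10 and at 95.4 and 89.6 at P49 (-0.54), and Plxna2 at 195 and 187 against 175 and 165 (-0.17, adjusted p = 0.02). The call of Plxna2 was lost without P10 library 1 (adjusted p = 0.101) or P49 library 2 (adjusted p = 0.149), and that of Nrp2 (-0.26, adjusted p = 0.027) without P10 library 2 (adjusted p = 0.251) or P49 library 1 (adjusted p = 0.176). The pair of Sema7a and its receptor Plxnc1 gave log2 changes of -0.05 ± 0.064 (adjusted p = 0.491) and 0.05 ± 0.059 (adjusted p = 0.459). Plxnb3, a plexin that oligodendrocytes express, rose from 43.3 and 42.1 CPM to 54.8 and 57 (0.39 ± 0.068, adjusted p = 4.9e-04).

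In the Eph system the EphB receptors fell in 4 of 5 cases and the ephrins in 5 of 8, with no ephrin higher. Ephb2, which acts in axon pathfinding and at excitatory synapses, was at 62 and 61.9 CPM at P10 and at 23.2 and 19.6 at P49, which is a log2 change of -1.53 ± 0.079 (adjusted p = 3.4e-08). Efna2, a membrane-anchored ligand of EphA receptors, fell from 11 and 11.8 CPM to 4.39 and 4.72 (-1.33 ± 0.13, adjusted p = 4.9e-06). Both genes had P10 libraries well above the P49 libraries. Epha2 went from 3.79 and 4.47 CPM to 2.37 and 1.72 (-1.01 ± 0.18, adjusted p = 4.8e-04). Efna4 was near the limit of what these libraries can show, at 0.346 and 0.587 CPM against 0.192 and 0.233. Its call (log2 change -1.14, adjusted p = 0.027) was lost without P10 library 2 (-0.70, adjusted p = 0.234), without P49 library 1 (adjusted p = 0.123) or 2 (adjusted p = 0.058) and in DESeq2 (adjusted p = 0.069). The EphA receptors were split, 5 lower and 3 higher. Epha6 rose from 13.5 and 12 CPM to 21.9 and 24.3 (0.86 ± 0.093, adjusted p = 1.2e-05), and Epha10, which lacks kinase activity, from 29.3 and 29.4 CPM to 41.7 and 44.1 (0.55 ± 0.068, adjusted p = 3.5e-05). Without 1 library, calls were also lost by Efna5 (adjusted p = 0.072 without P10 library 1, 0.081 without P10 library 2 and 0.151 without P49 library 2), Epha4 (0.061 without P10 library 1) and Epha7 (0.053 without P49 library 2).

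Of the 4 Robo receptors 3 fell and Robo3 rose, and of the Slits only Slit3 passed the test. Robo2 was at 303 and 297 CPM at P10 and at 164 in both P49 libraries (log2 change -0.87 ± 0.042, adjusted p = 2.1e-08). Robo1 was at 108 and 90.9 CPM and then at 57.9 and 58.8 (-0.77 ± 0.071, adjusted p = 3.3e-06). Robo3 was at 77.1 and 74.3 CPM and then at 80.5 and 94.7 (0.21 ± 0.075, adjusted p = 0.032), and Robo4, an endothelial receptor, at 14.4 and 17.1 and then at 10.8 and 12.1 (-0.46 ± 0.15, adjusted p = 0.018). Both calls rest on single libraries. For Robo3 the adjusted p was 0.119 without P10 library 2 and 0.364 without P49 library 2, and for Robo4 it was 0.11 without P10 library 2 and 0.088 without P49 library 1. Slit3 rose from 77.2 and 71.4 CPM to 102 and 112 (0.52 ± 0.063, adjusted p = 2.6e-05). Slit1 and Slit2, the other ligands, had log2 changes of -0.13 ± 0.053 (adjusted p = 0.054) and 0.12 ± 0.075 (adjusted p = 0.186).

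Netrin receptors of the Unc5 group rose in 3 of 4 cases. Unc5b rose from 13.8 and 13.9 CPM to 24.9 and 25.5 (0.87 ± 0.091, adjusted p = 9.4e-06), Unc5a from 83.8 in both libraries to 140 and 142 (0.75 ± 0.049, adjusted p = 2.0e-07), and Unc5c from 14.4 and 12.8 to 16.4 and 17.7 (0.32, adjusted p = 0.01). The call of Unc5c was lost without P10 library 2 (adjusted p = 0.072) or P49 library 2 (adjusted p = 0.065). Dcc, the attractive netrin receptor, was at 27.7 and 19 CPM at P10 and at 24.9 and 22.4 at P49, so the groups overlapped (log2 change 0.02 ± 0.14, adjusted p = 0.921). Their ligand Ntn1 was at 7.74 and 4.59 CPM and then at 3.18 and 3.42 (-0.90 ± 0.2, adjusted p = 0.0024). Ntn4, a netrin of basement membranes, fell less (-0.30, adjusted p = 0.014), a call lost without P10 library 1 (adjusted p = 0.084) or P49 library 2 (adjusted p = 0.105). Ntng1, a membrane-anchored netrin of the G type, rose from 9.95 and 8.54 CPM to 13.1 and 14.2 (0.56 ± 0.11, adjusted p = 0.0014), while its relative Ntng2 fell from 37.2 and 34.3 to 24.7 and 24.1 (-0.55 ± 0.074, adjusted p = 6.4e-05).

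Ntn5, a netrin-related gene, had the largest increase of all members. It was at 0.432 and 0.547 CPM at P10 and at 6.23 and 6.6 at P49, a log2 change of 3.70 ± 0.25 (adjusted p = 2.3e-07). The reads were unevenly spread along the gene, a pattern singled out after its values were seen. At P49 the first annotated junction (chr7:45684499-45686180) held 126 and 94 reads and the 2 last ones 160 and 159 (chr7:45691562-45691883) and 105 and 108 (chr7:45691938-45692340). The 2 junctions between them held 4 and 11 (chr7:45686826-45691046) and 7 and 11 (chr7:45691236-45691411). Another gene, Sec1, overlaps Ntn5 on the opposite strand, and whether reads were counted by strand is not stated, so the value for Ntn5 is uncertain.

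**Figure D2:**
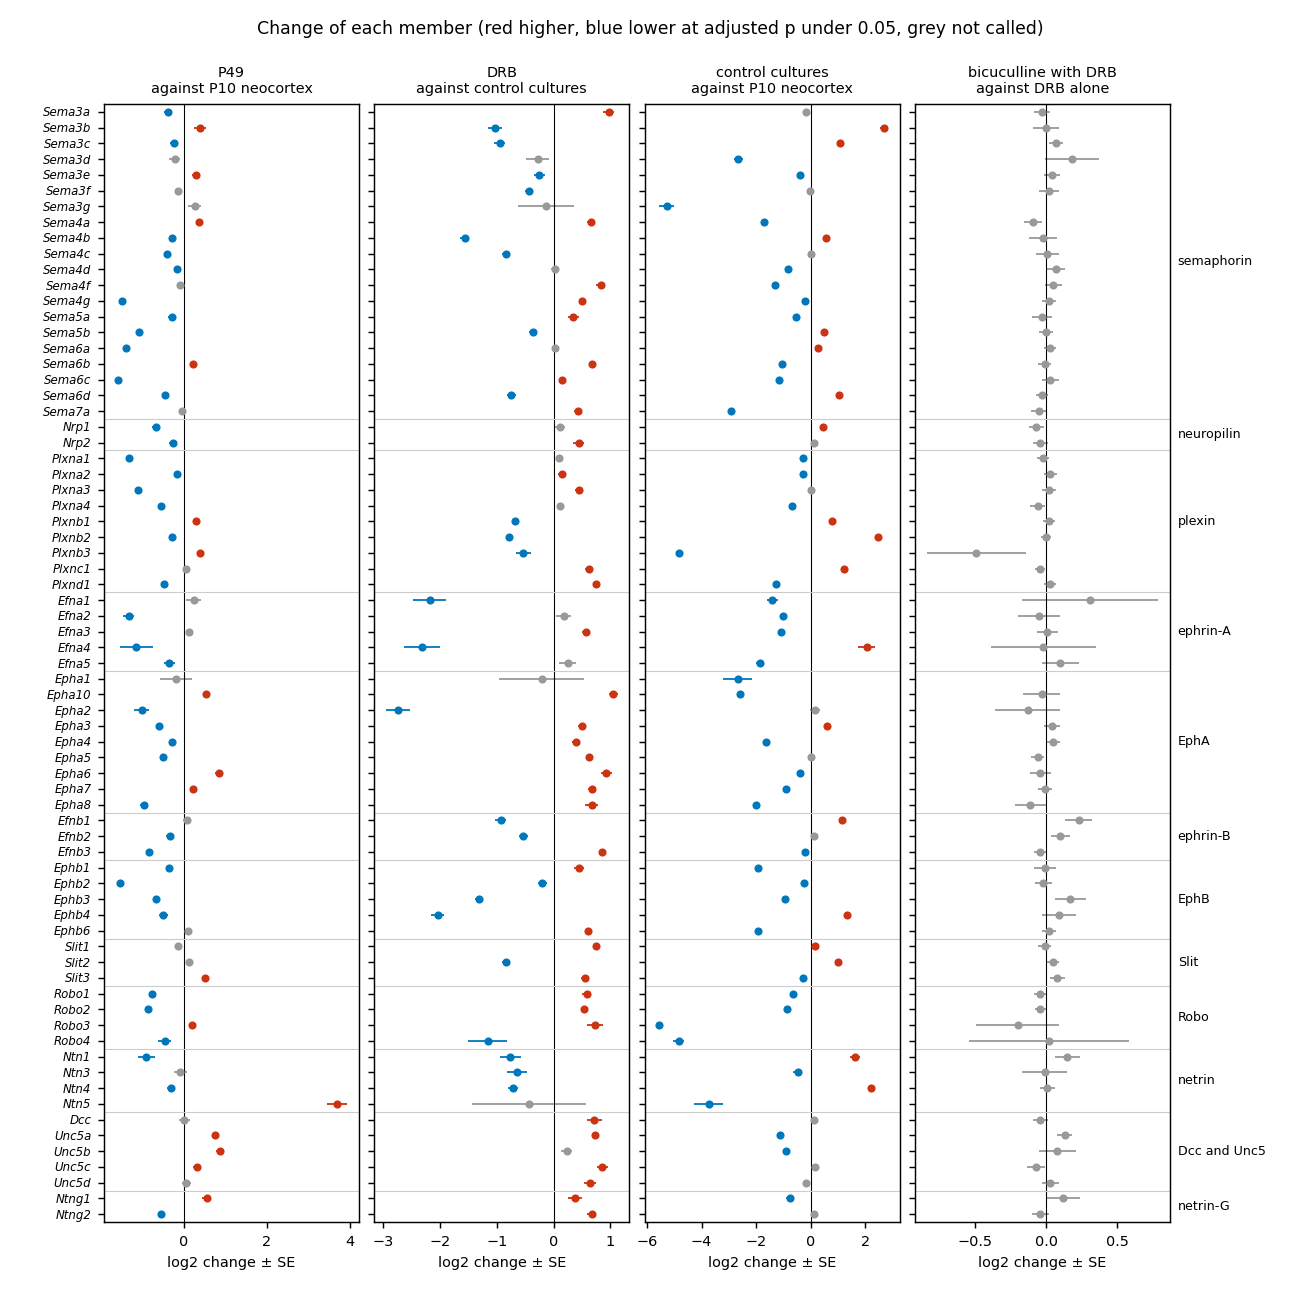
Log2 change with its standard error for the 71 ligands and receptors (68 in the bicuculline panel, where Epha1, Ntn5 and Sema3g were not tested), 1 panel per comparison, each with its own linear axis; red points rose and blue points fell at an adjusted p below 0.05, and grey points did not pass. Blue points outnumber red ones for P49 against P10 and for cultures against P10, and every point of the bicuculline panel is grey. In the panel of cultures against P10, Epha1, Ntn5 and Sema3g reached the filter's level in tissue only. Their blue points there had to differ and are no evidence of a change.

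Markers of several cell types moved between the ages too. Summed oligodendrocyte markers stood at 870 to 1016 CPM at P10 and 2639 to 2691 at P49, with 6 of 6 higher, and the 5 neuron markers at 2998 to 3077 and 5000 to 5075 (4 higher, 1 lower). Within the neuron sum Snap25 went from 999 to 2963 CPM. Rbfox3, Syt1 and Map2 rose only 1.25-fold, 1.32-fold and 1.11-fold, and Tubb3 fell 2.8-fold. Meningeal and fibroblast markers went from 565 to 572 CPM to 173 to 186 (3 of 5 lower), and cycling and radial glia markers from 126 to 132 to 49 to 52.1 (4 of 4 lower). Oligodendrocyte precursor markers went from 137 to 142 CPM to 77.7 to 80.1 (3 of 3 lower). Astrocyte markers stood at 946 to 1020 CPM and 953 to 986 (3 lower, 1 higher of 5 tested). Microglia markers stood at 225 to 238 CPM and 204 to 209 (1 of 6 lower). Endothelial and mural markers stood at 241 and at 179 to 197 CPM (3 lower, 1 higher of 5 tested), the higher one being Flt1. The part of these markers in the changes of the guidance genes was not tested. In whole tissue and mixed cultures, fewer cells of a type and less RNA per cell cannot be told apart.

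Co-receptors and signalling proteins of guidance receptors, a list of 59 genes of which 58 were tested, also fell more often than they rose. Of these, 28 were lower and 14 higher (48.3% and 24.1%), beside 28.9% and 28.2% of all genes. L1cam, an adhesion molecule that joins semaphorin receptor complexes, was at 763 ± 17 CPM at P10 and 299 ± 13 at P49 (log2 change -1.35 ± 0.051). Rnd1, a small GTPase that binds plexins, fell as well (-1.58 ± 0.061), as did Vav2, an exchange factor downstream of Eph receptors (-1.52 ± 0.057). Pak1, a kinase downstream of Rac, rose from 358 ± 4.6 to 831 ± 7.3 CPM (1.21 ± 0.043), and Chn1, a Rac inhibitor that acts below EphA4, from 468 ± 9.1 to 992 ± 12 (1.08 ± 0.046).

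The second comparison asked what was left of each transcript after 2 hours of DRB. With DRB, 35 of 73 members rose relative to all transcripts (47.9%) and 24 fell (32.9%), while over all genes 29.7% rose and 33.0% fell. The median log2 change was 0.15 for the members and -0.03 for all genes. Of 34 receptors 21 rose and 8 fell, and of 37 ligands 14 rose and 16 fell, a difference that was not tested. At least 2-fold, 8 of 73 members fell and 1 rose, near the shares over all genes (11.1% and 2.89%).

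The deepest decreases were in the Eph system. Epha2 went from 4.82 and 4.35 CPM in control cultures to 0.722 and 0.643 with DRB, a log2 change of -2.74 ± 0.21 (adjusted p = 5.5e-07). Efna4 went from 2.13 and 1.77 CPM to 0.476 and 0.313 (-2.31 ± 0.32, adjusted p = 7.3e-05), and Efna1, the main ligand of Epha2, from 1.02 and 1.15 to 0.247 and 0.231 (-2.18 ± 0.29, adjusted p = 5.0e-05). In all 3 genes both DRB libraries lay below both control libraries by more than the spread within groups. The junctions of Efna1, Efna3 and Efna4 are also listed in the tables under Il6ra and were counted here for the ephrins. Ephb4, a receptor of vessel and progenitor cells, went from 29.7 and 31.1 CPM to 6.96 and 7.78 (-2.04 ± 0.11, adjusted p = 6.8e-08). Ephb3 went from 27.1 and 28.5 CPM to 11.6 and 10.9 (-1.31 ± 0.077, adjusted p = 1.0e-07), and Efnb1 from 21.3 and 19.6 to 11 and 10.4 (-0.93 ± 0.093, adjusted p = 4.7e-06).

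Other members of the same families rose. Epha10 was at 4.91 and 4.83 CPM in control cultures and at 10.2 and 9.96 with DRB (log2 change 1.05 ± 0.08, adjusted p = 6.4e-07), Epha6 at 10 and 9.26 and then 18.9 and 17.8 (0.93 ± 0.096, adjusted p = 6.4e-06), and Efnb3 at 65.6 and 68.2 and then 119 and 124 (0.86 ± 0.049, adjusted p = 9.3e-08). Of the 9 EphA receptors 7 rose and only Epha2 fell, Epha1 being too low to call (log2 change -0.21 ± 0.75). The EphB receptors were split, with Ephb1 and Ephb6 higher and Ephb2, Ephb3 and Ephb4 lower. The call of Ephb2 (-0.20, adjusted p = 0.041) was lost in DESeq2 (adjusted p = 0.059), without DRB library 1 (adjusted p = 0.173) or 2 (adjusted p = 0.1) and without control library 2 (adjusted p = 0.257).

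Semaphorins divided evenly, with 8 of 20 higher and 8 lower. Sema4b, a class 4 ligand, went from 35.8 and 35.9 CPM to 11.3 and 12.9 (-1.56 ± 0.08, adjusted p = 6.0e-08). Sema3b went from 27.6 and 25.1 CPM to 12.7 and 13.1 (-1.03 ± 0.13, adjusted p = 3.0e-05), and Sema3c, also secreted, from 97.5 and 84.7 to 46.2 and 48.2 (-0.95 ± 0.092, adjusted p = 3.7e-06). Sema3a, the classic secreted repellent, moved the opposite way, from 24.3 and 26.2 CPM to 48.7 and 50 (0.97 ± 0.098, adjusted p = 5.5e-06). Sema4f rose from 22 and 25.6 CPM to 43.1 and 41.8 (0.83 ± 0.081, adjusted p = 4.0e-06). Secreted class 3 members thus stood among both the higher and the lower genes. Sema3e (-0.25), Sema5a (0.35) and Sema6c (0.15) each lost their call without at least 1 library, with adjusted p-values from 0.055 to 0.164. Among their receptors, Plxnd1, which binds Sema3e, rose from 184 and 196 CPM to 322 and 320 (0.75 ± 0.055, adjusted p = 4.6e-07). Plxnb1 and Plxnb2, which bind class 4 semaphorins, fell, Plxnb2 from 936 and 916 CPM to 527 and 544 (-0.79 ± 0.046, adjusted p = 1.0e-07).

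All 3 Slit genes passed the test, Slit1 and Slit3 upward and Slit2 downward. Slit1 was at 182 and 195 CPM in control cultures and 304 and 326 with DRB (0.74 ± 0.053, adjusted p = 3.9e-07), while Slit2 was at 157 and 134 and then 78.8 and 83.7 (-0.84 ± 0.075, adjusted p = 2.1e-06). Their receptors Robo1 (0.58), Robo2 (0.54) and Robo3 (0.73) rose, Robo3 from only 1.71 and 1.54 CPM to 2.61 and 2.75 (adjusted p = 6.6e-04). Robo4 was at 0.389 and 0.702 CPM and then at 0.211 and 0.28 (-1.16 ± 0.34, adjusted p = 0.011), a call lost without DRB library 1 (adjusted p = 0.078) or control library 2 (-0.65, adjusted p = 0.175). Of the netrins 3 of 4 fell, and of the 5 receptors of the Dcc and Unc5 group 4 rose. Ntn1 went from 19.9 and 18 CPM to 11.2 in both libraries (-0.76 ± 0.18, adjusted p = 0.0029), and Ntn3 (-0.64) and Ntn4 (-0.71) fell too, Ntn3 not without DRB library 1 (adjusted p = 0.075). Unc5c rose from 15 and 15.6 CPM to 26.2 and 29.5 (0.86 ± 0.091, adjusted p = 7.6e-06), Unc5a from 36.3 and 39.7 to 63 and 62.8 (0.73 ± 0.051, adjusted p = 3.6e-07) and Dcc from 25.6 and 25.3 to 38.8 and 44.9 (0.72 ± 0.14, adjusted p = 8.8e-04).

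Cell type markers differed between these cultures as well. Summed neuron markers stood at 1415 to 1466 CPM in control and 2602 to 2656 with DRB (5 of 5 higher). Cycling and radial glia markers stood at 3543 to 3912 CPM and 1774 to 1812 (4 of 4 lower), and the 5 measured endothelial and mural markers at 619 to 757 and 169 to 170 (4 lower, 1 higher). Within the latter sum the mural Acta2 went from 545 to 127 CPM. Of the endothelial markers, Kdr went from 100 to 24 CPM and Flt1 from 1.21 to 0.645, while Pecam1 rose from 0.879 to 1.7. The endothelial marker Cldn5 had no read in any library. In the group with DRB alone of the second experiment, which was scaled separately, neuron markers stood at 2293 to 2443 CPM. Cycling and radial glia markers stood there at 3081 to 3399 CPM, and endothelial and mural markers at 440 to 529, with Kdr at 97.9. The last 2 sums and Kdr thus lay nearer to the untreated cultures than to the first DRB group. The part of these differences in the changes of the guidance genes was not tested. In the list of co-receptors and signalling proteins 29 of 58 rose and 18 fell (50.0% and 31.0%). Over all genes 29.7% rose and 33.0% fell. Mical2, an enzyme of plexin signalling, rose from 227 ± 7.8 to 509 ± 16 CPM (1.17 ± 0.048), and Nck1, an adaptor of Eph receptors and Dcc, fell from 10.2 ± 0.61 to 2.89 ± 0.24 CPM (-1.82 ± 0.12).

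**Figure D3:**
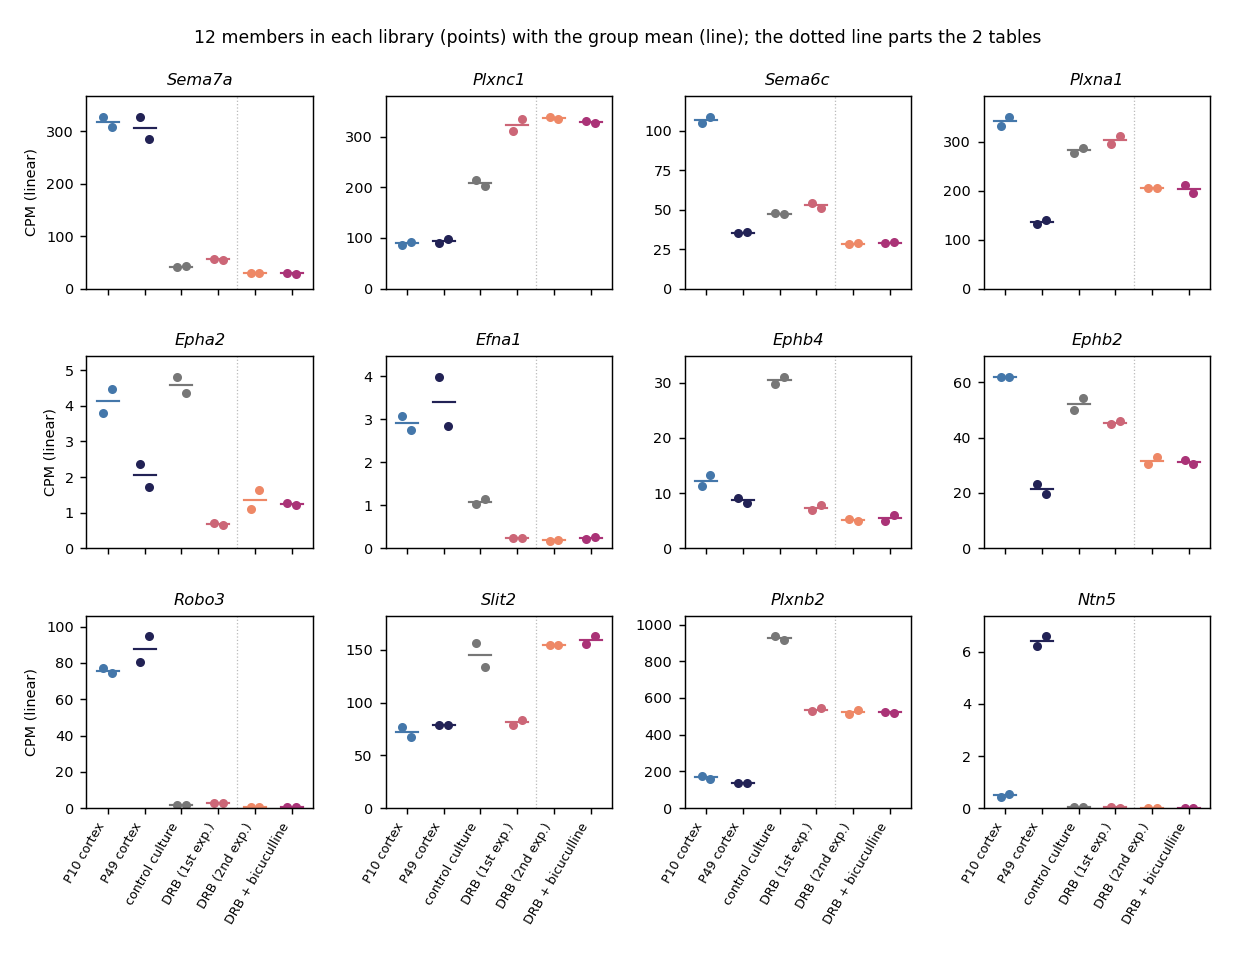
CPM of 12 members on linear axes that start at 0, with 1 point per library and a line at the mean of the 2 libraries of each group; the dotted line parts the tables, which were scaled separately. Epha2 and Ephb4 fall from control to the first DRB group, Slit2 lies near 80 CPM in the first DRB group and near 155 in the second, and Robo3 is near 0 in all cultures.

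Long genes are common among guidance receptors, so the change with DRB was also described along the gene, without a test. For members with at least 6 used annotated junctions and 100 reads at each end, the junctions were ordered in the direction of transcription and cut into 3 equal parts, of which the first and the last are compared. Of 15 members that span 200 kb or more, 14 had a lower log2 change in the first part than in the last, with a median difference of -0.12. Some of these were close to ties: Slit3 and Unc5d differed by -0.02, and both parts of Epha6 were at 0.96 after rounding. Of all genes of that span, 477 of 596 had the lower change in the first part, also with a median of -0.12. Shorter members showed the same order: it held in 18 of 23 under 50 kb (median -0.13) and 12 of 15 from 50 to 200 kb (median -0.08). Over all genes of these spans it held in 3267 of 4816 (median -0.07) and 1670 of 2173 (median -0.13). Dcc, which spans 1091 kb, changed by 0.56 in its first part and 0.84 in its last. Slit2, at 319 kb, changed by -1.02 and -0.67, and Sema5a, at 342 kb, by 0.17 and 0.50. Epha7, at 150 kb, went against this order with 0.71 and 0.46. Among the 15 long members 11 rose as genes and 3 fell (73.3% and 20.0%), beside 58.6% and 18.6% of the 596 long genes, whose median log2 change was 0.31.

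**Figure D4:**
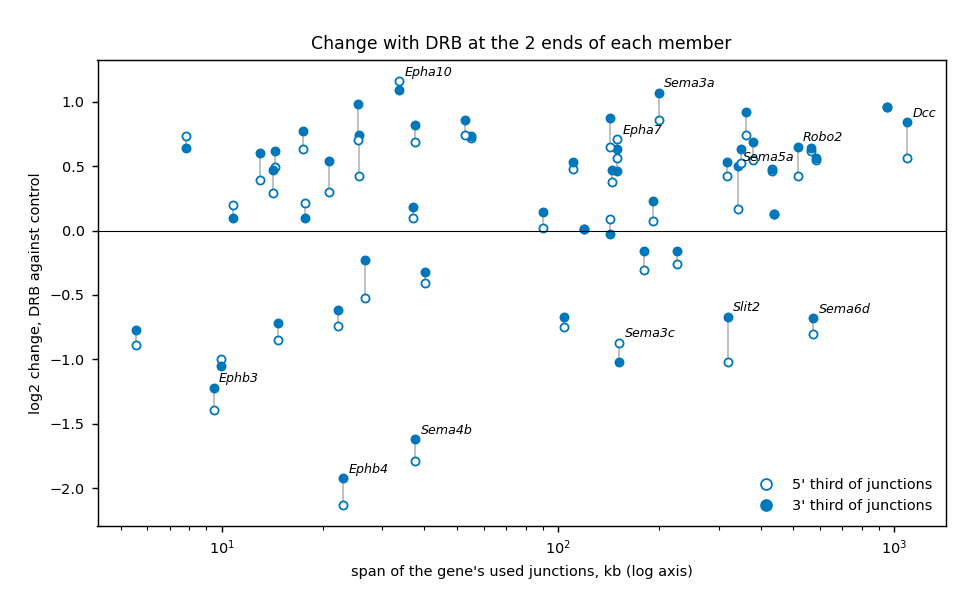
Log2 change of DRB against control at the first (open circles) and last (filled circles) of 3 equal parts of the junctions of each ligand or receptor, against the span of these junctions in kb on a log axis; a line joins the 2 values of a gene. In 14 of the 15 members of 200 kb or more the open circle is the lower one, though the circles nearly coincide in some, such as Epha6, Slit3 and Unc5d.

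The third comparison set control cultures against P10 cortex, both of which the study used as sources of cortical RNA. It shares its libraries with both comparisons above, so its values are given side by side and no overlap is drawn from them. In culture 41 of 73 members were lower (56.2%) and 19 higher (26.0%), while 37% of all genes were lower and 37% higher. At least 2-fold, 23 members were lower and 11 higher, beside 16.6% and 15.6% of all genes. Epha1, Ntn5 and Sema3g reached the filter's level in tissue only and so had to differ. Without them 38 of 70 members were lower, 20 of them at least 2-fold.

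Robo3, known for its role in commissural axons, was the member with the largest difference. It was at 77.1 and 74.3 CPM in P10 cortex and at 1.71 and 1.54 in control cultures, a log2 difference of -5.55 ± 0.11 (46.7-fold, adjusted p = 6.1e-12). At P49 it stood at 80.5 and 94.7 CPM. Robo4, the endothelial member, was at 14.4 and 17.1 CPM in tissue and 0.389 and 0.702 in culture (-4.83 ± 0.2, adjusted p = 1.5e-09). Beside it, the endothelial markers Pecam1 and Flt1 were at 32.6 ± 2.4 and 41.3 ± 0.86 CPM in tissue. In culture they were at 0.879 ± 0.01 and 1.21 ± 0.039 (log2 differences of -5.21 and -5.09). Kdr, another endothelial marker, was at 94.1 ± 0.015 CPM in tissue and 100 ± 13 in culture and did not pass the test (0.09, adjusted p = 0.316). The part of these markers in the difference of Robo4 was not tested. The other 2 Robo receptors were also lower, by much less (-0.66 for Robo1 and -0.87 for Robo2), and Slit2 was higher in culture (1.01 ± 0.075).

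Plxnb3 was at 43.3 and 42.1 CPM in tissue and 1.59 and 1.45 in culture (-4.81 ± 0.093, adjusted p = 6.2e-12). Sema3d, a secreted semaphorin, was at 8.09 and 7.66 and at 1.09 and 1.39 (-2.66 ± 0.16, adjusted p = 3.8e-08). Sema7a was at 328 and 309 CPM and at 40.5 and 42.9 (-2.93 ± 0.07, adjusted p = 2.3e-11), while its receptor Plxnc1 was at 86.9 and 92.6 in tissue and 214 and 203 in culture (1.22 ± 0.059, adjusted p = 4.4e-09). The ligand and the receptor of this pair thus differed in opposite directions. Epha10 was at 29.3 and 29.4 CPM against 4.91 and 4.83 (-2.59 ± 0.078, adjusted p = 1.1e-10), and Epha8 at 36.4 and 30.1 against 8.44 and 8.21 (-2.00 ± 0.11, adjusted p = 9.4e-09). For the 3 members that passed the filter through tissue alone, no test is given. Sema3g, also secreted, was at 5.42 and 5.67 CPM in P10 cortex and at 0.0742 and 0.201 in culture, where it had 4 and 12 reads. Epha1 was at 0.418 and 0.614 CPM and at 0.0742 and 0.0836, with 4 and 5 reads in culture. Ntn5 had 71 reads in the P10 libraries together and 4 in the control cultures, a ratio of 14 with a 95% exact counting interval of 5.23 to 52.8, which covers counting error only.

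Higher in culture were Sema3b, at 4.57 and 3.58 CPM in tissue and 27.6 and 25.1 in culture (2.69 ± 0.14, adjusted p = 8.4e-09), and Plxnb2, at 173 and 161 against 936 and 916 (2.47 ± 0.049, adjusted p = 7.0e-12). Among netrins, Ntn4 and Ntn1 were higher as well, Ntn4 at 11.7 and 10.5 CPM against 54 and 48.6 (2.21 ± 0.088, adjusted p = 9.3e-10) and Ntn1 at 7.74 and 4.59 against 19.9 and 18 (1.62 ± 0.18, adjusted p = 7.7e-06). Efna4 was at 0.346 and 0.587 CPM in tissue and 2.13 and 1.77 in culture (2.05 ± 0.31), Ephb4 at 11.2 and 13.2 and then 29.7 and 31.1 (1.32 ± 0.1), and Efnb1 at 8.94 and 9.8 and then 21.3 and 19.6 (1.13 ± 0.093). Sema3c was at 46 and 39.9 CPM in tissue and 97.5 and 84.7 in culture (1.08 ± 0.092), and Sema6d at 76.8 and 77.9 and then 166 and 153 (1.04 ± 0.075). In these 5 genes both culture libraries lay above both tissue libraries, with adjusted p-values of at most 8.4e-05. Summed cycling and radial glia markers stood at 126 to 132 CPM in P10 cortex and 3543 to 3912 in culture (4 of 4 higher), oligodendrocyte markers at 870 to 1016 and 60.3 to 73.8 (6 of 6 lower), and meningeal and fibroblast markers at 565 to 572 and 74.4 to 83.7 (5 of 5 lower). Neuron markers stood at 2998 to 3077 CPM and 1415 to 1466 (4 lower, 1 higher), microglia markers at 225 to 238 and 43.8 to 54.2 (4 lower, 2 higher), and astrocyte markers at 946 to 1020 and 1641 to 1651 (4 higher, 1 lower of 5 tested). Endothelial and mural markers stood at 241 and at 619 to 757 CPM (3 lower, 1 higher of 5 tested), the higher one being the mural Acta2. Their part in these differences was not tested. Of the 58 co-receptors and signalling proteins, 28 were lower and 22 higher (48.3% and 37.9%), beside 37% of all genes in each direction. Cntn2, an axonal adhesion molecule, was at 16.4 ± 0.24 CPM in culture and 88.1 ± 4.3 in tissue (-2.43 ± 0.061), and Sdc4, a heparan sulfate proteoglycan, at 64.4 ± 1.8 and 13 ± 0.53 (2.31 ± 0.072).

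The second experiment asked whether raised network activity changes spliced transcripts while transcription is blocked. No member passed the test: 0 of 69 were called, while 0.181% of all 14395 genes were higher and 0.0208% lower (0.201% in all). At an unadjusted p below 0.05 edgeR gave 2 of 69 members, Efnb1 and Unc5a, beside 4.18% of all genes, and DESeq2 called 0 and gave 0 at that unadjusted threshold. Efnb1 was at 7.64 and 8.5 CPM with DRB and 9.72 and 9.12 with bicuculline added (0.23 ± 0.096, adjusted p = 1), and Unc5a at 32.7 and 32.6 and then 36.8 and 34.4 (0.13 ± 0.056, adjusted p = 1). Of the 69 members 67 had a log2 change within 0.25 of 0, and the median standard error was 0.058. The other 2 were low: Plxnb3 at 0.881 and 0.442 against 0.556 and 0.379 CPM (-0.49 ± 0.35), and Efna1 at 0.182 and 0.205 against 0.214 and 0.269 (0.31 ± 0.48). At such levels these libraries cannot show a change of this size.

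The 2 groups that received DRB alone were set side by side without a test, since they come from separate experiments and tables. Of 69 members measured in both, 42 had mean levels within 1.5-fold of each other, 22 were at least 1.5-fold higher in the first experiment and 5 at least 1.5-fold higher in the second. Plxnd1 was at 322 and 320 CPM in the first and 140 and 133 in the second, and Slit1 at 304 and 326 and at 218 and 201. The second experiment had no untreated group. Of the 10 members with the largest increases with DRB, Plxnd1, Epha10, Robo3 and Unc5a had second-experiment means below the untreated means of the first. These were 136, 4.29, 0.705 and 32.6 CPM, beside 190, 4.87, 1.62 and 38 untreated. Sema3a, Epha6, Unc5c, Efnb3, Sema4f and Slit1 lay above their untreated means. The 5 members at least 1.5-fold higher in the second experiment were Epha2, Sema3c, Sema3d, Sema3e and Slit2. Slit2 was at 78.8 and 83.7 CPM in the first experiment and 155 in both libraries of the second, beside 157 and 134 in the untreated cultures of the first. Sema3c was at 46.2 and 48.2 CPM and then 76.1 and 85.9, beside 97.5 and 84.7 untreated. Efna1 (0.247 and 0.231, then 0.182 and 0.205) and Ephb4 (6.96 and 7.78, then 5.25 and 4.91) were low in both.

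Junctions of a gene can change by unequal amounts, for example where an exon is skipped. This was tested within each gene with edgeR's diffSpliceDGE over all junctions of at least 20 reads. For P49 against P10, 2 of 71 members were called, beside 8.45% of all 14356 genes, and for DRB against control 3 of 71, beside 10.5%. Whether these shares differ from those of all genes was not tested. The 5 genes were Robo2 and Sema7a between ages and Plxna2, Slit2 and Sema6d with DRB.

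In Robo2 the junction that changed skips a microexon of 12 coding bases (chr16:74008775-74008786, minus strand, mm10/GRCm38, exon 7 of the GENCODE transcript Robo2-210). The mature RNA with and without the exon is shown with 30 bases of each neighbouring exon, with the microexon in capitals.
Robo2 with the microexon: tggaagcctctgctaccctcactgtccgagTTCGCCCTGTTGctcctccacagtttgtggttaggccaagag
Robo2 without it: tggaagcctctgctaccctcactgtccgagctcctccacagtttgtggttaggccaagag
Reads that join these neighbours directly numbered 65 and 67 at P10 and 5 and 6 at P49, a log2 change relative to the gene of -1.74 (adjusted p = 4.6e-07 over 190303 junctions; adjusted p of the gene 2.4e-06). Inclusion, the mean of the reads into and out of the exon as a share of these and the skipping reads, was 90.2% and 89.2% at P10 and 98.7% and 97.9% at P49. Control cultures included it at 84.7% and 88.5%, and with DRB the values were 82.6% and 85.2%. The exon was thus included in most Robo2 transcripts everywhere and in nearly all at P49. The first junction of the gene also changed between ages, from 186 and 248 reads to 66 and 55 (relative log2 change -0.55, adjusted p = 0.0033).

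Plxna2 gained a stop-containing exon with DRB. The exon has 188 bases (chr1:194769369-194769556, plus strand), of which 45 are coding before a stop codon at chr1:194769414-194769416, and it belongs to Plxna2-204, a transcript annotated as subject to nonsense-mediated decay. The RNA that joins the exon is shown from 30 bases of the preceding exon up to its stop codon, in capitals, and the RNA that skips it is shown over 30 bases on each side.
Plxna2 with the exon: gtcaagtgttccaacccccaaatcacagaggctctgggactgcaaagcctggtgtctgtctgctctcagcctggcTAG
Plxna2 without it: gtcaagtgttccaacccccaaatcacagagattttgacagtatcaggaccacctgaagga
Control cultures had 1 read into the exon in each library and 3 out of it in each, against 228 and 282 reads that skip it, an inclusion of 0.87% and 0.704%. With DRB there were 22 and 23 reads into it and 30 and 36 out of it, against 242 and 235, an inclusion of 9.7% and 11.2%. The relative log2 changes were 2.88 (adjusted p = 4.6e-05) and 2.23 (adjusted p = 2.0e-05), and the gene as a whole had an adjusted p of 8.9e-05. In the second experiment all cultures had DRB, and inclusion was 11.8% and 13.6% without and 16% and 12.8% with bicuculline. Tissue stood at 0.28% and 0.294% for P10 and 0.442% and 0.758% for P49. Every library with DRB was thus at 9.7% or above, and every other library below 1%.

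A small exon of Slit2 also changed with DRB. It has 27 coding bases (chr5:48263641-48263667, plus strand, exon 31 of 39 in Slit2-217), shown in capitals between 30 bases of each neighbour.
Slit2 with the exon: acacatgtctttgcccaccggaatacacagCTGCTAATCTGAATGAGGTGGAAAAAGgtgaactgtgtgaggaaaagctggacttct
The junction out of it had 9 and 6 reads in control cultures and 28 and 23 with DRB, although Slit2 as a gene fell (relative log2 change 1.77, adjusted p = 4.2e-05; gene adjusted p = 1.9e-04). The junctions into the exon and past it were not used here, so its use is given relative to the next junction downstream, at 2.71% and 1.65% in control cultures and 15.4% and 9.91% with DRB. P10 cortex had the highest values, 18.8% and 18.1%, and P49 had 10.4% and 7.44%. The gene's call was lost without DRB library 1 (adjusted p = 0.062).

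Sema6d and Sema7a rest on less. In Sema6d an annotated 5′ junction over an intron of 155519 bases held 63 and 59 reads in control cultures and 76 and 99 with DRB while the gene fell (relative log2 change 0.84, adjusted p = 8.0e-04; gene adjusted p = 0.0036). Its call was lost without DRB library 2 (adjusted p = 0.075), control library 1 (adjusted p = 0.079) or control library 2 (adjusted p = 0.235). In Sema7a a donor 140 bases inside the first intron, which the annotation does not list, took 5.01% and 5.44% of the reads to the next exon at P10 and 11.6% and 13% at P49 (gene adjusted p = 0.013). That call was lost without any of the 4 tissue libraries in turn, with adjusted p-values from 0.061 to 0.291. Robo3, added after its values were seen, used an unlisted acceptor 110 bases from the annotated one in most tissue reads, with 172 and 176 reads against 53 and 57 at P10 and 218 and 199 against 26 and 53 at P49.

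**Figure D5:**
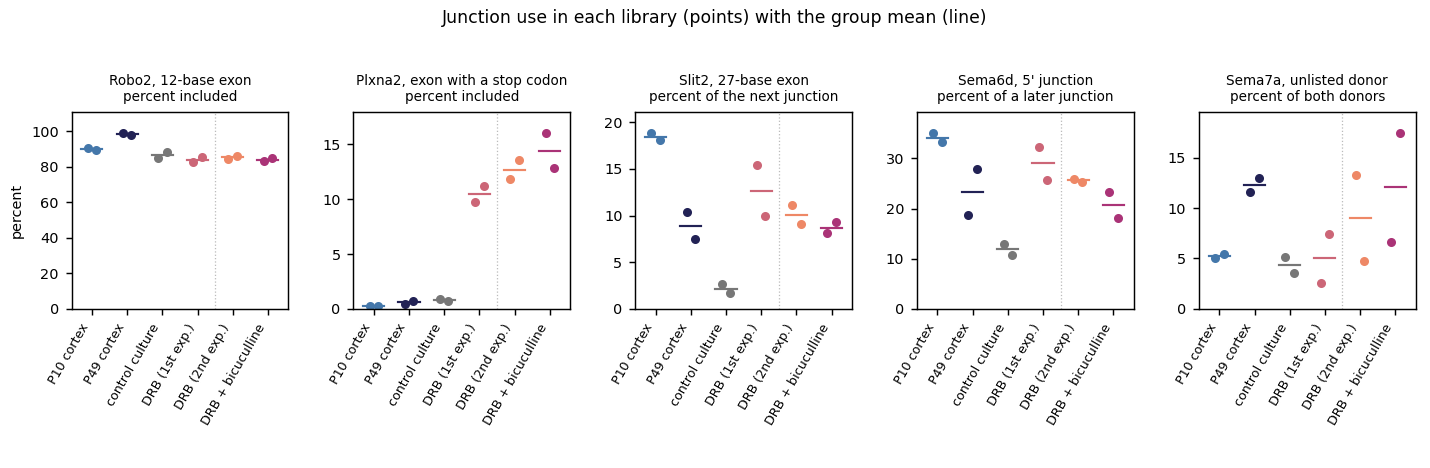
Use of 5 junctions or exons in percent, with 1 point per library, a line at the group mean and linear axes from 0; the dotted line parts the tables. Robo2 microexon inclusion is highest at P49, the Plxna2 stop exon is above 9% only in DRB libraries, and the Slit2 exon is lowest in control cultures.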

How the data were processed

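Spliced reads of 12 libraries were analysed from 2 deposited tables of counts per exon-exon junction. Per the submitters' processing notes, the authors aligned reads with STAR 2.4.0f1 to mm10 (GRCm38); the counting of junctions is not stated in those notes. Columns could be matched to groups but not to single samples, control, P49 and DRB alone in the second experiment by elimination, so libraries 1 and 2 are in column order. Some DRB columns are named for TTX, and whether it was given is not stated. A further 6 columns for each library, 72 in all, were not used. Counts were summed over distinct coordinates per gene symbol, and unnamed lines (0.418% to 0.53% of reads) were left out.

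Tests used edgeR 4.0.16 in R 4.3.3 (TMM, filterByExpr, quasi-likelihood, all 8 or all 4 libraries of a table) and its diffSpliceDGE with Simes p-values. Both were also run on simulated counts with the same spread for every gene and independent replicates. Such a run checks the code and cannot show that the p-values hold for these libraries. DESeq2 1.42.0, other filters, fits of the compared groups alone, annotated junctions only and leaving out each library were alternatives. Gene assignment by GENCODE mouse release M21, which also gave the sequences, was an alternative chosen after seeing the data. Values in every library are printed for up to 10 called members per direction with the largest log2 change. The rule also took in their ligand or receptor partners, of which only some are printed. The members and lists were chosen with earlier results of these data known.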

Additional observations from a re-analysis of the deposited data

How the results depend on the processing

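No guidance gene that passed a test changed direction under any alternative run. Leaving out 1 library at a time gave 12 to 19 higher and 32 to 34 lower members at P49, 32 to 36 and 20 to 23 with DRB, 18 to 21 and 39 to 42 in culture against P10, and 0 with bicuculline. The other alternatives gave 14 to 16 and 36 to 40, 35 to 37 and 23 to 24, and 19 and 41 to 42. Members with unequal junction change numbered 1 to 2 between ages, with 1 without P10 library 2, and 2 in every such fit for DRB. A replicate block by the letters a and b of the second table called 0 members higher and 0 lower for bicuculline; same-lettered libraries deviated together with r = 0.0961 over 14395 genes, so the letters were not taken as pairs. No paired analysis was possible because the column names of the first table carry library codes that do not match the replicate letters of the labels. A lone library left in a group was assumed to vary like the other groups. Depth limits Efna1, Efna4, Epha1, Ntn5, Robo4, Sema3g and Unc5cl, which have few reads in culture.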
